A study of Homo sapiens with 6 samples.

Results

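The data described here are the RNA levels of 8 amino acid transporter genes, SLC7A5, SLC3A2, SLC7A1, SLC7A6, SLC38A1, SLC38A2, SLC1A4 and SLC1A5, in human U2OS osteosarcoma cells with or without visible TDP-43 aggregates. The genes were chosen by name, as the main plasma membrane carriers of neutral and cationic amino acids in proliferating cells, and all 8 of the 8 were found among the 36601 rows of the gene count table and tested. All cells carried a doxycycline-induced TDP-43-mNLS-Clover, the RNA-binding protein TDP-43 fused to a green fluorescent protein and kept out of the nucleus by a disabled import signal. In 1 group (aggregates, 3 libraries) the cells received 50 nM of TDP-43 low complexity domain fibrils with lipofectamine and were sorted by image-based flow cytometry for fluorescent aggregates after 48 h. In the other group (diffuse, 3 libraries) the cells received the storage buffer in place of the fibrils and were sorted for diffuse fluorescence. The 3 libraries of a group came from separate transfections of this established line in serum-containing medium, and the comparison asks how the transcriptome of aggregate-bearing cells differs. Fibril exposure and sorting gate went together, so their parts in any difference cannot be told apart.

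Amino acids cross the plasma membrane on carriers of several families. SLC7A5 (LAT1) and SLC7A6 (y+LAT2) are light chains that reach the cell surface only when bound to the heavy chain SLC3A2 (CD98hc, 4F2hc). SLC7A5 exchanges large neutral amino acids such as leucine, SLC7A6 exchanges cationic amino acids for neutral ones with sodium, and SLC7A1 (CAT1) admits arginine and lysine on its own. SLC1A5 (ASCT2) and SLC1A4 (ASCT1) exchange small neutral amino acids, glutamine among them for SLC1A5. SLC38A1 (SNAT1) and SLC38A2 (SNAT2) concentrate glutamine and other small neutral amino acids with sodium, and SLC38A2 is the carrier best known for rising when cells lack amino acids. Several of these genes are textbook targets of ATF4, the transcription factor of the amino acid response, which binds composite elements (CARE) of the form TGATGNAA.

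Because ATF4 is the best described regulator of these genes, the promoters of the 8 genes were searched for that element. RefSeq (GRCh38.p14) gave 14 promoters, of 250 bases before to 50 bases after a start site, for the 8 genes. A match to TGATGNAA, on either strand, was found in 5 of the 14, 1 each for 5 genes, against 3.62% of 35116 promoters of the same length. The 5 windows are shown on the strand of the gene, with the match in capitals:
SLC1A4: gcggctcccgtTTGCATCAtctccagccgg
SLC7A1: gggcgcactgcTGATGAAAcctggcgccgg
SLC38A1: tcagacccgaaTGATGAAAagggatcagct
SLC1A5: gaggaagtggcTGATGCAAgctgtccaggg
SLC3A2: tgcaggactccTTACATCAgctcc
The SLC1A4 window lies on the plus strand at chr2:64989381-64989410, with the first base of the match at position -7 from the start site. The SLC7A1 window lies on the minus strand at chr13:29595663-29595692 (match from +8), and the SLC38A1 window on the minus strand at chr12:46266502-46266531 (match from -4). The SLC1A5 window, also on the minus strand, is at chr19:46784893-46784922 (match from -97) and belongs to an internal start, and the SLC3A2 window at chr11:62881725-62881748 on the plus strand (match from +38) belongs to an internal start as well. The SLC1A4 and SLC38A1 windows belong to the more downstream of 2 RefSeq starts of each gene. For SLC1A4, the intron that follows this start (chr2:64990171-65001447) made up 99.9% ± 0.248 of its cluster of spliced reads in aggregate cells and 99.6% ± 0.166 in diffuse cells. The intron that follows the upstream start (chr2:64988621-65001447) made up 0.143% ± 0.248 and 0.365% ± 0.166. For SLC38A1, the intron that begins just after its downstream start made up 0.481% ± 0.168 of its cluster of spliced reads in aggregate cells and 0.0709% ± 0.123 in diffuse cells. That intron has no annotated match. It held 6, 7 and 3 reads in aggregates libraries 1 to 3 and 0, 2 and 0 in diffuse libraries 1 to 3. By edgeR's diffSpliceDGE it was not called (intron adjusted p = 0.395), so no direction is given for it. The first annotated introns after the internal starts were rare too. For SLC3A2 (chr11:62881719-62881892) it made up 0.253% ± 0.0848 of its cluster in aggregate cells and 0.595% ± 0.298 in diffuse cells. For SLC1A5 (chr19:46784560-46784699) it made up 0.639% ± 0.235 and 0.707% ± 0.179. Neither intron was called. The promoter windows of SLC38A2, SLC7A5 and SLC7A6 held no such match. The E-box CACGTG, which MYC family proteins and others bind, was found in 2 of the 14 promoters, 1 of SLC7A5 and 1 of SLC1A5, against 7.26% of all promoters. The SLC1A5 match belongs to an internal start. The letters TGACNNNGC, the core bound by NRF2, were found on either strand in 5 of the 14, of SLC3A2, SLC7A1, SLC7A5, SLC7A6 and SLC1A5, against 13.3%. Those of SLC3A2 and SLC1A5 belong to internal starts. A match is a description of the sequence and not a binding site.

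The 6 libraries held 40279084 to 46863013 counts, so that 1 count was worth 0.0213 to 0.0248 CPM (counts per 1000000 counts of the library). Mitochondrially encoded genes took 3.45%, 3.30% and 3.48% of the counts in aggregates libraries 1 to 3 and 2.54%, 3.37% and 2.53% in diffuse libraries 1 to 3, so diffuse library 2 stood with the aggregates libraries. Of 9 markers of U2OS and mesenchymal or osteoblast lineage cells, SP7 was at 0 in all libraries. The 9 summed to 5650 to 6127 CPM in the aggregates libraries and 8390 to 8640 CPM in the diffuse ones, but their genes did not move together: COL1A1 (log2 fold change -1.08), COL1A2 (-1.74), VIM (-0.65) and FN1 (-0.39) were lower, CD44 (0.37), RUNX2 (0.56) and ALPL (1.245) were higher, and SPARC was not called. The 6 epithelial markers, all of them detected, summed to 319 to 325 CPM against 681 to 742 CPM, mostly the keratins KRT8 and KRT18, and the 4 neuronal and glial markers to 44.4 to 45.8 CPM against 56.8 to 58.3 CPM. Of these 4, SNAP25 (-0.71) and SYT1 (-1.68) were lower, RBFOX3 was higher (2.85, from 2.79 to 20.1 CPM), and GFAP was under 1 CPM in all libraries. The 5 blood cell markers were each under 1 CPM in all libraries, with sums of 0.213 to 0.361 CPM and 0.348 to 0.521 CPM, and the 3 endothelial markers summed to 1.47 to 2.22 CPM and 1.69 to 2.26 CPM. The part of these shifts in the results that follow was not tested.

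The largest differences among the 8 genes were lower levels of 3 sodium-dependent or cationic carriers in aggregate cells: SLC38A2, SLC1A4 and SLC7A1. The LAT1 pair SLC7A5 and SLC3A2 and the glutamine exchanger SLC1A5 were lower by a small margin, SLC7A6 was higher, and SLC38A1 did not pass the test. By edgeR's quasi-likelihood test at an adjusted p under 0.05, 6 of the 8 were lower, 1 was higher and 1 was not called. The comparison called 75.4% of the 17839 genes tested, 37.8% higher and 37.6% lower, so being called is itself common here. The median log2 fold change was -0.12 over the 8 genes and 0.01 over all genes tested. The groups did not overlap for 7 of the 8, against 76.2% of all genes tested. With TMM scaling none of the 8 changed 2-fold, against 2638 of the 17839 genes tested. Of the 8, 2, SLC38A2 and SLC1A4, changed at least 1.5-fold, against 6289 of the 17839. Tested against a change of 1.2-fold, 3 of the 8 were called, all lower, against 51.6% of all genes tested. With a GC and length correction, added after the data were seen, 7 of the 8 were called, 5 lower and 2 higher, against 75.6%. The 8 genes together summed to 2679 ± 42.4 CPM in aggregate cells and 3340 ± 104 CPM in diffuse cells (SD, n = 3). Fewer cells that express a gene and less of its RNA per cell cannot be told apart in these bulk libraries.

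**Figure D1:**
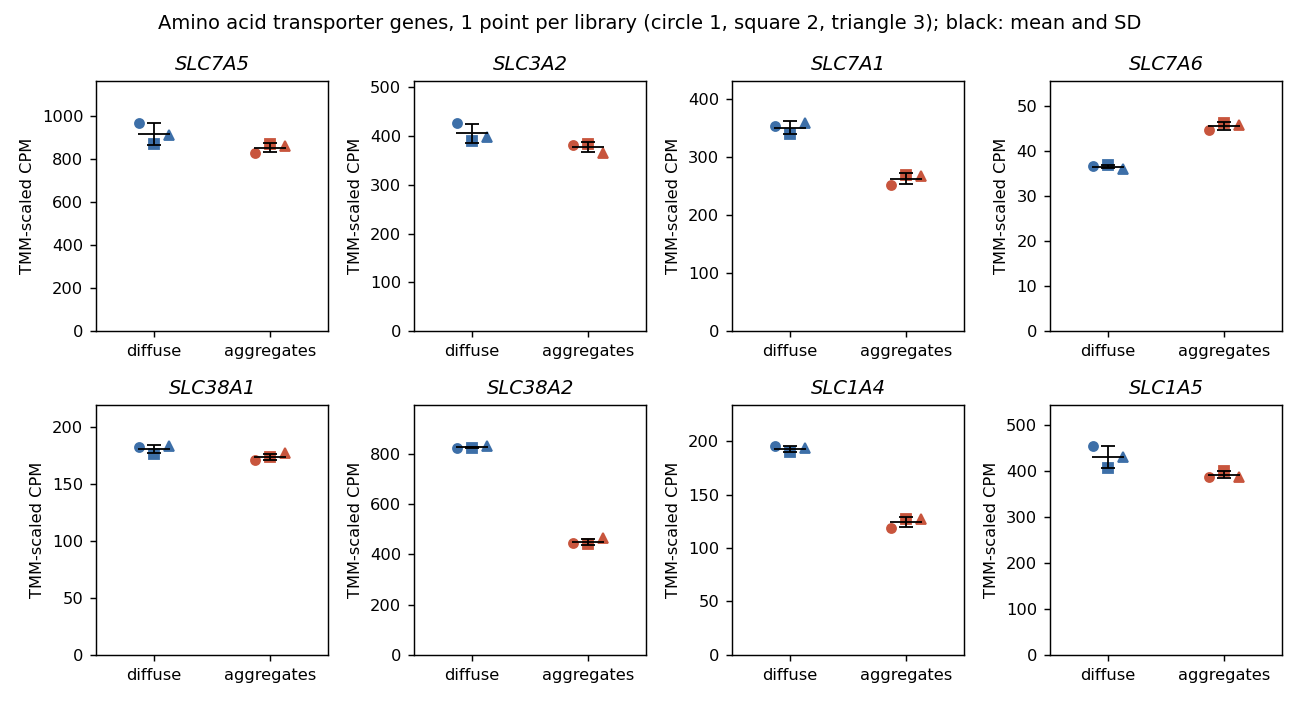
Levels of the 8 transporter genes in TMM-scaled CPM (vertical axes from 0, 1 panel per gene), with 1 point per library and the mean and SD of each group in black. SLC38A2, SLC1A4 and SLC7A1 sit well below the diffuse libraries in all 3 aggregates libraries, SLC7A6 sits above them, and the 2 groups of SLC38A1 overlap.

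SLC38A2, the adaptable glutamine and alanine transporter of system A, showed the largest change. The gene (chr12:46358189-46372867, minus strand, GENCODE 29) stood at 446, 441 and 464 CPM in aggregates libraries 1 to 3 and at 824, 826 and 830.1 CPM in diffuse libraries 1 to 3. Every aggregates library was far below every diffuse one, and the diffuse libraries lay within a few CPM of each other. The means were 450.3 ± 12.2 and 826 ± 3.30 CPM (SD, n = 3), a log2 fold change of -0.88 (SE 0.04, adjusted p = 3.87e-39). With the GC and length correction it was -0.68 (adjusted p = 7.91e-24). Its paralog SLC38A1 (chr12:46183063-46270017, minus strand), which lies near it on the chromosome and carries much the same substrates, stood at 171, 174 and 176 CPM in the aggregates libraries and 182, 176 and 183 CPM in the diffuse libraries. The groups of SLC38A1 overlapped, since diffuse library 2 lay within the range of the aggregates libraries. Its log2 fold change was -0.05 (SE 0.04, adjusted p = 0.165). The correction for GC content and transcript length turned the SLC38A1 value to 0.18 (adjusted p = 8.95e-07), so no direction is given for it.

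SLC1A4, the alanine, serine and cysteine exchanger, fell next most. The gene (chr2:64988477-65023865, plus strand) stood at 119, 127 and 127 CPM in aggregates libraries 1 to 3 and at 195, 189.9 and 193 CPM in diffuse libraries 1 to 3. The 2 groups were wide apart. The log2 fold change was -0.63 (SE 0.04, adjusted p = 9.15e-30), from 193 ± 2.60 to 124 ± 5.05 CPM. Its paralog SLC1A5 (chr19:46774883-46788594, minus strand), the main glutamine exchanger of many tumour lines, stood at 388, 400.2 and 387 CPM in the aggregates libraries and 453, 406 and 431 CPM in the diffuse libraries. Diffuse library 2 was the lowest of its group and came within a few CPM of aggregates library 2. The SLC1A5 log2 fold change was -0.14 (SE 0.04, adjusted p = 6.90e-04), and it did not pass a test against a change of 1.2-fold (adjusted p = 1).

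SLC7A1, the arginine and lysine carrier, fell from 351 ± 10.5 to 263 ± 9.52 CPM. The gene (chr13:29509410-29595688, minus strand) stood at 252, 269 and 268 CPM in aggregates libraries 1 to 3 and at 354, 339 and 359 CPM in diffuse libraries 1 to 3. No aggregates library reached the diffuse range. The log2 fold change was -0.42 (SE 0.04, adjusted p = 1.01e-18), and -0.28 (adjusted p = 6.20e-11) with the GC and length correction.

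The LAT1 pair was lower by a small margin. SLC7A5 (chr16:87830023-87869488, minus strand), the leucine-carrying light chain, stood at 831, 871 and 859 CPM in aggregates libraries 1 to 3 and at 970, 871 and 913 CPM in diffuse libraries 1 to 3. Its highest aggregates library and its lowest diffuse library, both replicate 2, were less than 1 CPM apart. SLC3A2 (chr11:62856102-62888875, plus strand), the shared heavy chain, stood at 380.3, 384 and 365 CPM in the aggregates libraries and at 427, 389.6 and 399 CPM in the diffuse libraries. Here too diffuse library 2, the one with the high mitochondrial share, was the lowest of its group. The log2 fold changes were -0.10 for SLC7A5 (SE 0.04, adjusted p = 0.0116) and -0.10 for SLC3A2 (SE 0.04, adjusted p = 0.00785). Both calls ended with upper-quartile scaling (-0.06, adjusted p = 0.128 for SLC7A5 and -0.06, adjusted p = 0.114 for SLC3A2) and without diffuse library 1 (-0.07, adjusted p = 0.133 and -0.07, adjusted p = 0.103), and that of SLC7A5 also without aggregates library 1 (-0.08, adjusted p = 0.0826). With the GC and length correction the values moved apart, to -0.01 (adjusted p = 0.815) for SLC7A5 and -0.23 (adjusted p = 3.07e-09) for SLC3A2, and neither gene passed a test against a change of 1.2-fold (adjusted p = 1 for each).

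SLC7A6, the other light chain of the set, was the 1 gene that rose. The gene (chr16:68264516-68301823, plus strand) stood at 44.6, 46.3 and 45.8 CPM in aggregates libraries 1 to 3 and at 36.8, 36.8 and 36.1 CPM in diffuse libraries 1 to 3. All aggregates libraries were above all diffuse ones. The means were 45.6 ± 0.862 and 36.6 ± 0.397 CPM, a log2 fold change of 0.32 (SE 0.04, adjusted p = 2.00e-10), which was 0.51 (adjusted p = 2.56e-16) with the GC and length correction. It missed the threshold against a change of 1.2-fold (adjusted p = 0.0604). SLC7A6 overlaps SLC7A6OS on the opposite strand, a gene at a mean of 11.6 CPM with a log2 fold change of -0.25. SLC1A5 overlaps the antisense gene AC008622.2, which was too low to be tested. The strand setting of the counting is not given in the sources used here, so reads shared by such opposite pairs could be counted with either gene.

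**Figure D2:**
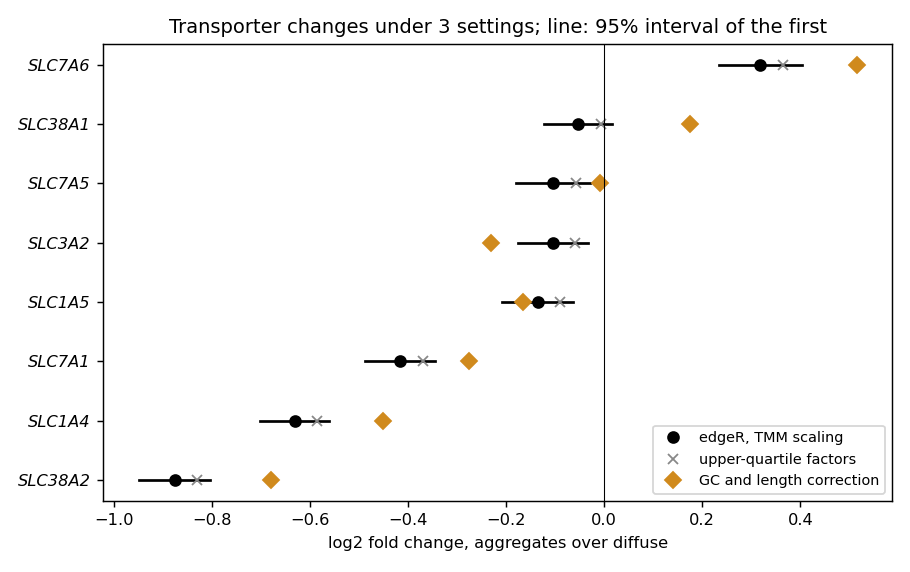
Log2 fold change of each transporter gene, aggregates over diffuse, with TMM scaling (black, with its 95% interval), upper-quartile scaling (crosses) and a GC and length correction (diamonds). SLC38A2, SLC1A4 and SLC7A1 stay below 0 and SLC7A6 above 0 under all 3, while SLC38A1 crosses 0 and SLC7A5 comes to it.

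Ratios of 2 genes within a library do not depend on how libraries are scaled, and they give the balance between partners and paralogs. They can depend on GC content and transcript length, for which these ratios of raw counts were not corrected. Of 6 pairs examined, the light and heavy chain of LAT1 had the same mean ratio in both groups: SLC7A5 to SLC3A2 was 2.27 ± 0.0841 in aggregate cells and 2.27 ± 0.0273 in diffuse cells (SD, n = 3, exact two-sided permutation p = 1, which does not show that the balance was kept). Leaving out 1 library put its log2 difference between -0.0260 and 0.0275, and the 2 genes moved apart with the GC and length correction, as given above. The ratio of SLC38A2 to SLC38A1 was 2.61, 2.54 and 2.63 in aggregates libraries 1 to 3 and 4.53, 4.69 and 4.55 in diffuse libraries 1 to 3, a log2 difference of -0.82. The SLC38 pair therefore shifted toward SLC38A1, with no overlap between the groups. The SLC1 pair shifted toward SLC1A5: SLC1A5 to SLC1A4 was 3.27, 3.15 and 3.04 in the aggregates libraries and 2.32, 2.14 and 2.23 in the diffuse libraries (log2 difference 0.50). Of the light chains, SLC7A5 to SLC7A6 was 18.7 ± 0.105 against 25.1 ± 1.37 (log2 difference -0.42), and SLC7A6 to SLC3A2 was 0.121 ± 0.00402 against 0.0904 ± 0.00421 (log2 difference 0.42). SLC7A1 to SLC7A5 was 0.308 ± 0.00414 against 0.383 ± 0.0152 (log2 difference -0.31). Each of the 5 shifted pairs reached the smallest p that 3 against 3 libraries allow (exact two-sided permutation p = 0.1, adjusted over the 6 pairs p = 0.12), so none could pass a threshold of 0.05.

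**Figure D3:**
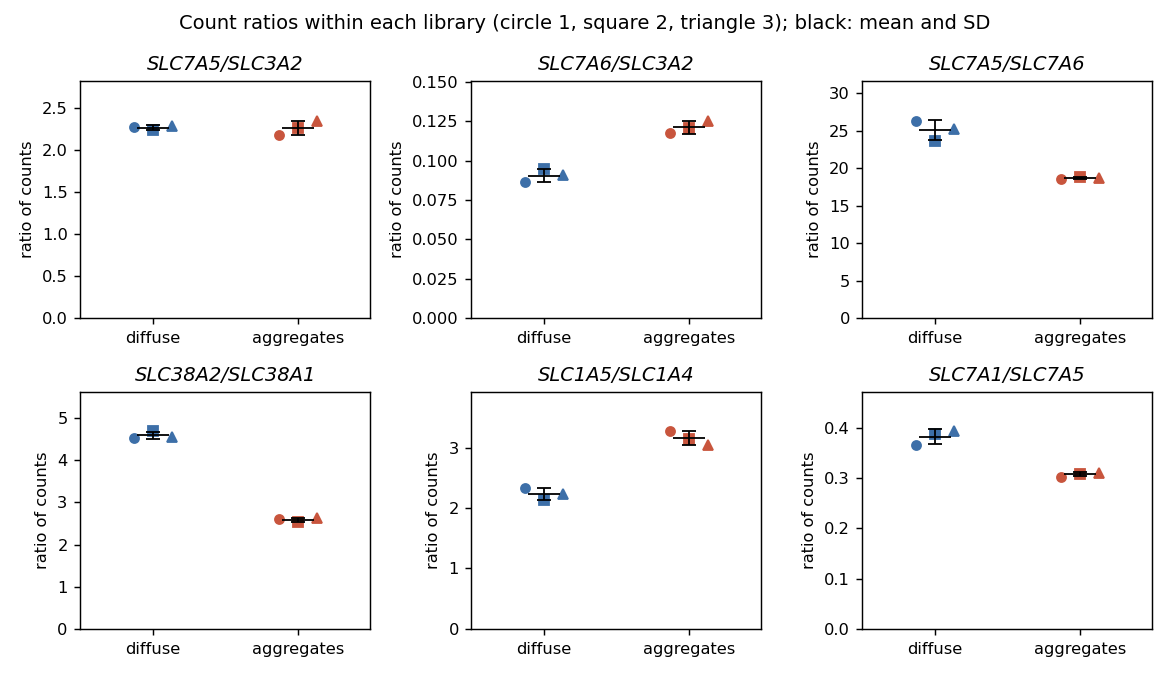
Ratio of raw counts of 2 transporter genes within each library (vertical axes from 0), with 1 point per library and the mean and SD of each group in black. SLC7A5 to SLC3A2 has a mean of 2.27 in both groups, whereas SLC38A2 to SLC38A1 is 2.59 in aggregate cells and 4.59 in diffuse cells.

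Levels can be set against each other between genes only per length, here as CPM per kilobase of annotated exon. SLC7A5 had the highest level in both groups, at 179.9 ± 4.39 in aggregate cells and 193 ± 10.4 in diffuse cells, and SLC7A6 the lowest, at 6.01 ± 0.114 and 4.82 ± 0.0523. In diffuse cells SLC1A5 (129 ± 7.13) and SLC38A2 (125 ± 0.5003) followed SLC7A5 and overlapped each other. They were followed by SLC3A2 (78.2 ± 3.74), SLC7A1 (45.6 ± 1.36), SLC1A4 (27.8 ± 0.375) and SLC38A1 (17.99 ± 0.352), none of which overlapped its neighbour. In aggregate cells SLC38A2 (68.2 ± 1.84) ranked below SLC3A2 (72.7 ± 1.91), and SLC1A4 (17.9 ± 0.728) overlapped SLC38A1 (17.3 ± 0.267). SLC1A5 (118 ± 2.22) and SLC7A1 (34.2 ± 1.24) held ranks 2 and 5 of 8 there.

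The library-to-library pattern of a gene was compared with those of 11598 genes of at least 5 CPM, as the Euclidean distance of log2 CPM centred per gene over the 6 libraries. Nearest to SLC7A5 were TUBA3C (distance 0.0110), MTMR14 (0.0302) and KIF1C (0.0313), and nearest to SLC3A2 were SHC1 (0.0260), SLC25A38 (0.0327) and SGTA (0.0366). SLC1A5 was number 12 from SLC7A5 (0.0544) and number 48 from SLC3A2 (0.0667). SLC3A2 was number 56 from SLC7A5 (0.0796), and SLC7A5 number 82 from SLC3A2. Of the other members, SLC38A1 was closer to SLC7A5 (0.111) than SLC7A1 (0.393), SLC7A6 (0.528), SLC1A4 (0.654) and SLC38A2 (0.956) were.

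Spliced reads, deposited as counts of introns grouped into clusters that share splice sites, gave a second view of the same libraries. Counted per gene as a share of all spliced counts of the library, without TMM scaling, they gave log2 ratios of -0.98 for SLC38A2, -0.65 for SLC1A4, -0.43 for SLC7A1, 0.20 for SLC7A6, -0.23 for SLC1A5, -0.20 for SLC3A2, -0.14 for SLC7A5 and 0.01 for SLC38A1. Spliced counts totalled 28529818 to 32020553 in the aggregates libraries and 25341453 to 26907926 in the diffuse ones. These ratios are thus scaled differently from the fold changes above, and their sizes cannot be compared directly. The 8 genes held 26 clusters with 136 introns. None of the 26 was called by edgeR's diffSpliceDGE with Simes adjustment, against 5.02% of 35898 clusters tested, and none by its F test, against 7.58%. At an unadjusted p under 0.05 there were 3 of 26 (11.5%), against 15.1% of all clusters, and the largest shift of any intron's use was 3.23 percentage points. The lowest cluster value (adjusted p = 0.125) was in SLC7A5, where an intron at chr16:87834523-87836497 with no annotated match made up 0.466% ± 0.139 of its cluster in aggregate cells and 0.997% ± 0.147 in diffuse cells. In SLC38A2 the exon-skipping intron at chr12:46367341-46370775 made up 1.86% ± 0.369 and 1.17% ± 0.181 (cluster adjusted p = 0.142). A cluster of SLC1A5 was called only when aggregates library 2 was left out (adjusted p = 0.0248).

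Among the clusters of these genes, that of the upstream first exons of SLC3A2 shifted most as a share of its gene's spliced counts. It was singled out after its values were seen. In GENCODE 29 the longer SLC3A2 transcripts start at chr11:62856102 and beyond and splice into an acceptor whose first exonic base is 62881019. That acceptor lies within the first exon of the shorter transcripts, which ends at 62881447, and both kinds then share the intron chr11:62881448-62881892. The internal RefSeq start of SLC3A2, whose promoter window holds matches to TGATGNAA and TGACNNNGC as given above, is not shown here. The 250 bases before the upstream start (chr11:62855859-62856108) and before the main start (chr11:62880646-62880895) are shown on the plus strand of GRCh38.p14. Neither holds any of the 3 motifs searched, so no base is in capitals:
SLC3A2 upstream start: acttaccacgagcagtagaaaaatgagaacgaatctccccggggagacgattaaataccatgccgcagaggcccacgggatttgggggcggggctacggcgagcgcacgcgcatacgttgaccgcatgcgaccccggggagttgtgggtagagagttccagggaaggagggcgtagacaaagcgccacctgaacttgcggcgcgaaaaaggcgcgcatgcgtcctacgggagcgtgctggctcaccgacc
SLC3A2 main start: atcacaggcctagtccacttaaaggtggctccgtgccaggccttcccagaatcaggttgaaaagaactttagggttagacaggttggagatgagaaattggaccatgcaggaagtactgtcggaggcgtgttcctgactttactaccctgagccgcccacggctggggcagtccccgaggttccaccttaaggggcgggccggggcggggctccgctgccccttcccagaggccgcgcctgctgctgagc
The 4 introns that end at the acceptor held 503, 574 and 512 counts in aggregates libraries 1 to 3 and 324, 357 and 329 counts in diffuse libraries 1 to 3. The shared intron held 2041, 2334 and 1986 counts and 2217, 2139 and 2323 counts. Upstream counts thus equalled 24.6% (exact 95% interval 22.3% to 27.2%), 24.6% (22.4% to 27.0%) and 25.8% (23.3% to 28.4%) of the shared intron in the aggregates libraries. They equalled 14.6% (13.0% to 16.4%), 16.7% (14.9% to 18.7%) and 14.2% (12.6% to 15.9%) in the diffuse libraries. These intervals cover counting error only. All 3 aggregates libraries were above all 3 diffuse ones, at 25.0% ± 0.671 against 15.2% ± 1.35 (SD, n = 3, exact two-sided permutation p = 0.1, the smallest that 3 against 3 allow). As CPM of all spliced counts, the upstream introns were higher in aggregate cells (17.7 ± 0.401 against 13.0 ± 0.883), whereas the shared intron was lower (70.8 ± 1.80 against 85.8 ± 1.98). With the intron after that (chr11:62882067-62882907) as the denominator, the percentages were 18.6 ± 0.959 and 11.1 ± 0.912. The upstream cluster made up 13.9% ± 0.967 of SLC3A2's spliced counts in aggregate cells and 8.96% ± 0.516 in diffuse cells, a ratio of 1.55, and over the other 25 clusters the same ratio lay between 0.89 and 1.07. Smaller shifts without overlap between the groups were also seen in other clusters. In SLC7A1 the cluster at chr13:29516247-29517143 made up 16.7% ± 0.325 of spliced counts in aggregate cells and 18.7% ± 0.921 in diffuse cells. The cluster test above does not see such shifts, since it compares introns within 1 cluster.

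**Figure D4:**
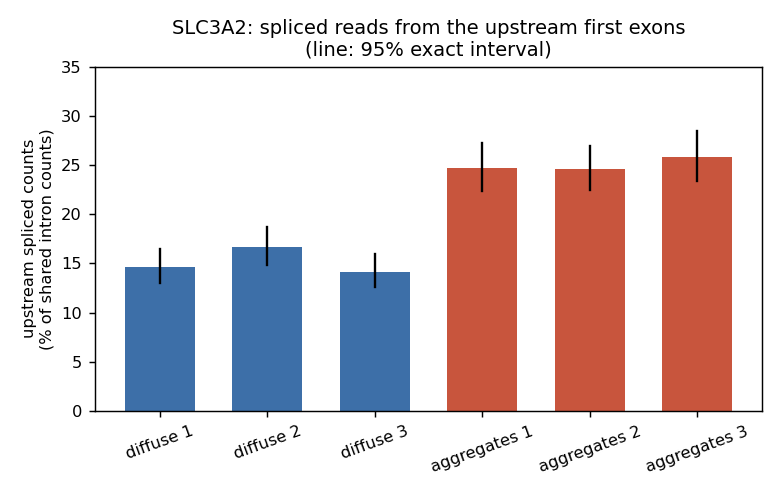
Spliced counts from the upstream first exons of SLC3A2 as a percentage of those of the first intron shared with the shorter transcripts (vertical axis from 0, 1 bar per library, lines: exact 95% intervals for counting error). The aggregates libraries lie between 24.6% and 25.8% and the diffuse libraries between 14.2% and 16.7%.

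Other plasma membrane amino acid transporters divided evenly. Of 30 listed, 19 were tested: 9 were higher, 9 were lower and 1 was not called, with a median log2 fold change of -0.18. That median has no stable direction: it was positive without aggregates library 3 (0.08) or any 1 of the diffuse libraries (0.04 to 0.08), with the GC and length correction (0.01) and at a mean of at least 5 CPM (0.32). SLC7A11, the cystine and glutamate exchanger that also binds SLC3A2, rose from 201 to 293 CPM (log2 fold change 0.54). SLC6A15, a carrier of branched-chain amino acids, rose from 31.0 to 79.3 CPM (1.35), and SLC43A1 (LAT3), a carrier of large neutral amino acids without a heavy chain, from 10.6 to 17.1 CPM (0.70). In contrast SLC1A3, a glutamate carrier, fell from 47.7 to 16.1 CPM (-1.57), SLC7A10, a small neutral carrier that pairs with SLC3A2, from 11.8 to 3.92 CPM (-1.59), and SLC6A9, a glycine carrier, from 62.2 to 31.98 CPM (-0.96). SLC7A7, the y+LAT1 light chain, was at 0.945 CPM against 1.17 CPM and was not called (adjusted p = 0.119). Each of the 6 called genes had an adjusted p of 2.20e-18 or less, and none changed direction under any setting tried.

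Among carriers inside the cell, 5 of the 9 lysosomal carriers tested of 10 listed were higher and 2 were lower (median 0.22). SLC38A7, which exports glutamine from lysosomes and is a paralog of SLC38A2, rose from 29.9 to 69.9 CPM (log2 fold change 1.22). The cystine exporter CTNS (0.95), the cationic exporter SLC66A1 (0.72), the cysteine importer component MFSD12 (0.38) and the histidine and peptide carrier SLC15A4 (0.22) were higher too, and SLC36A4 was lower (-0.86). SLC38A9, the arginine-sensing carrier, and SLC36A1 were not called, at -0.07 (adjusted p = 0.274) and 0.08 (adjusted p = 0.123). SLC36A1 passed with the GC and length correction (0.21, adjusted p = 1.14e-05), with upper-quartile scaling (0.12, adjusted p = 0.0106) and at a mean of at least 5 CPM (0.09, adjusted p = 0.0415). Of 11 mitochondrial carriers tested of 12 listed, 6 were higher and 4 were lower (median 0.15). The aspartate and glutamate carriers SLC25A13 (0.46) and SLC25A12 (0.37), the ornithine carrier SLC25A15 (0.62) and SFXN2 (0.93) rose, while the serine carrier SFXN1 fell (-0.40), and SLC25A18 was not called (-0.38, adjusted p = 0.161). SLC25A29 was called at 0.19 (adjusted p = 0.0111), a call that ended with the DESeq2 test (adjusted p = 0.0790), without diffuse library 1 (adjusted p = 0.0509) and against a change of 1.2-fold (adjusted p = 0.823).

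The genes that sense amino acids upstream of mTORC1, the growth kinase complex that these carriers supply, were also split. Of 15, all tested, 7 were higher, 6 lower and 2 not called (median 0.14). RRAGD, a Rag GTPase that recruits mTORC1 to lysosomes, rose from 22.0 to 65.3 CPM (log2 fold change 1.57), and RRAGA rose by 0.70 on the same scale. NPRL2 of the inhibitory GATOR1 complex (0.64) and EIF2AK4, the kinase GCN2 that reads uncharged tRNA (0.62), rose as well. The leucine sensor family member SESN3 fell from 127 to 38.3 CPM (-1.73), and BMT2 (SAMTOR), the S-adenosylmethionine sensor, fell from 58.9 to 21.9 CPM (-1.43). The leucyl-tRNA synthetase gene LARS (0.02, adjusted p = 0.554) and CASTOR1 (0.14, adjusted p = 0.226) were not called, though LARS passed with the GC and length correction (0.17, adjusted p = 9.85e-07) and with upper-quartile scaling (0.07, adjusted p = 0.0429).

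Non-transporter targets of ATF4 did not move in 1 direction. Of 29, all tested, 13 were higher, 13 lower and 3 not called (median 0.05, between -0.03 and 0.10 over the settings tried). TRIB3, an ATF4-induced pseudokinase, rose from 91.3 to 176.6 CPM (log2 fold change 0.95), and PYCR1 of proline synthesis (0.68) and CTH of cysteine synthesis (0.58) rose. ATF3 (-0.69), ATF5 (-0.65) and the alanine transaminase GPT2 (-0.61) fell, and PSPH (0.05, adjusted p = 0.281) and VLDLR (-0.05, adjusted p = 0.262) were not called. PSPH passed with upper-quartile scaling (0.10, adjusted p = 0.0393) and VLDLR, with its sign turned, with the GC and length correction (0.16, adjusted p = 2.19e-04). ATF4 itself, in the list of 14 regulators of the transporters, fell from 789 to 622 CPM (-0.34, adjusted p = 3.33e-14). Of these regulators 4 were higher, 7 lower and 3 not called (median -0.07, between -0.11 and 0.03 over the settings tried). MYC, which is known to raise SLC7A5 and SLC1A5 transcription, rose from 204 to 373 CPM (0.87). LAPTM4B, which recruits the LAT1 pair to lysosomes, rose from 71.0 to 158 CPM (1.15). SGK1, a kinase that stabilizes several carriers at the membrane, fell from 81.9 to 33.8 CPM (-1.27), YAP1 fell (-0.62), and NEDD4, a ubiquitin ligase, fell (-0.42). NEDD4L (0.03, adjusted p = 0.524) and BSG (0.02, adjusted p = 0.656) were not called, but with the GC and length correction both were, NEDD4L at 0.24 (adjusted p = 4.84e-08) and BSG at -0.13 (adjusted p = 1.60e-04).

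Of the 15 tested genes of glutamine and branched-chain amino acid metabolism, of 16 listed, 9 were higher, 5 lower and 1 not called (median 0.23). GLUL, which makes glutamine, fell from 77.0 to 32.9 CPM (log2 fold change -1.23). DBT, the transacylase of the branched-chain ketoacid dehydrogenase, fell from 48.6 to 25.1 CPM (-0.95), and BCKDK, the kinase that inhibits this complex, rose from 19.2 to 29.02 CPM (0.60). CAD, which takes glutamine into pyrimidine synthesis, rose from 109 to 179 CPM (0.72). GOT1 was not called (0.04, adjusted p = 0.409) except with upper-quartile scaling (0.08, adjusted p = 0.0487). GPT2 and SESN2 each stand in 2 of the 7 lists. These counts are to be read against the 75.4% of all genes that were called.

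**Figure D5:**
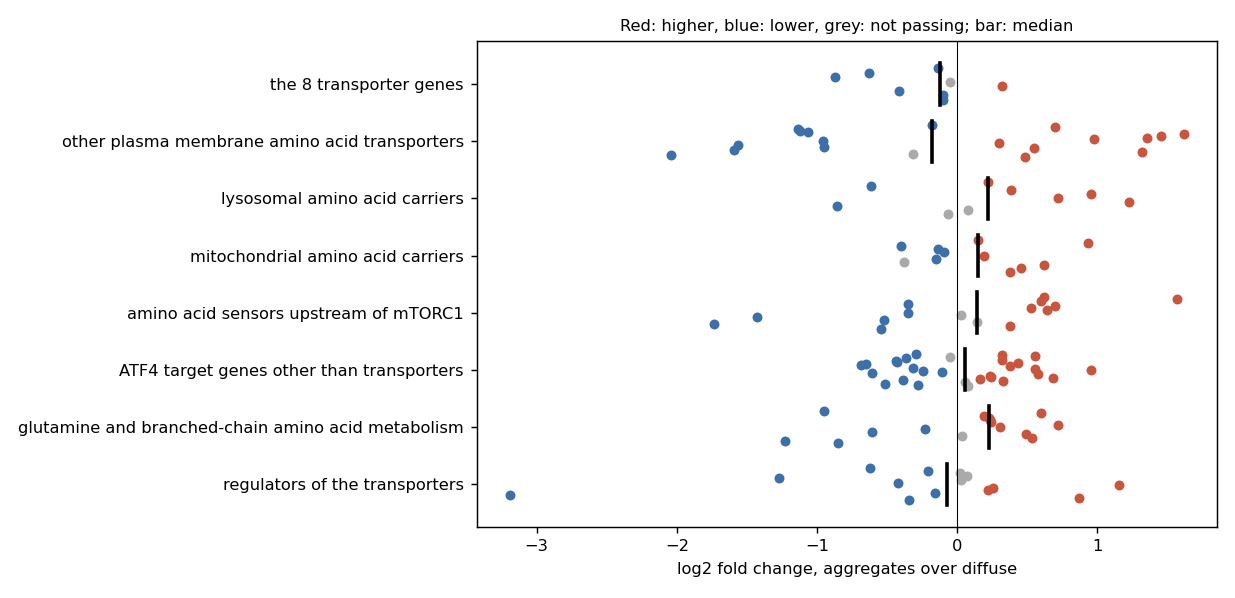
Log2 fold change, aggregates over diffuse, of each tested gene of the 8 transporters and of the 7 pathway lists (red higher, blue lower, grey not passing, black bar the median). Genes lie on both sides of 0 in each list, and the medians run from -0.18 to 0.23, those of the other plasma membrane transporters, the ATF4 targets and the regulators with no stable sign across settings.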

How the data were processed

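The members and gene lists were chosen with earlier results of these data known. Polyadenylated RNA of 6 libraries was sequenced with a stranded kit, per the labels' protocols. The authors deposited raw read counts per gene and raw spliced-read counts per intron. fastp 0.23.2, STAR 2.7.11a and hg38 are named in the submitters' processing notes, whereas the gene counter with its strand setting and annotation is not given in the sources used here. Genes were filtered with filterByExpr, scaled by TMM and tested with edgeR 4.0.16 (robust quasi-likelihood fit, Benjamini-Hochberg over 17839 genes, threshold 0.05) in R 4.3.3. CPM values are TMM-scaled, except the sums over marker lists, which are per library total. Introns with at least 10 counts, in clusters of at least 2 introns with at least 10 counts in every library, were tested with diffSpliceDGE. Single values were compared by exact permutation in scipy 1.17.1. Each fit was checked on simulated data. Gene positions and splice sites came from GENCODE 29, and promoters from RefSeq. LARS1 was matched as LARS through its Ensembl ID. From each list the text names up to 6 called genes of at least 5 CPM whose groups do not overlap, by size of change, and up to 2 not called, by level. 1 gene that this rule names is not reported here. Leaving out each library, the replicate number as a block, other scalings (DESeq2 1.42.0, upper quartile, library totals), the DESeq2 test, other filters and a fold of 1.2 were tried, and a GC and length correction (mgcv 1.9.3) and the SLC3A2 upstream ratio were added after the data were seen.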

Additional observations from a re-analysis of the deposited data

How the results depend on the processing

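SLC38A2, SLC1A4 and SLC7A1 stayed lower and past the threshold under all alternatives, and SLC7A6 stayed higher. Against a fold of 1.2, 3 of the 8 genes were lower and 0 higher: SLC7A5 (-0.10), SLC3A2 (-0.10), SLC1A5 (-0.14) and SLC7A6 (0.32) missed it. The changed genes then numbered 15 of 29 ATF4 targets tested, 8 of 15 in the glutamine list, 5 of 11 mitochondrial carriers and 7 of 14 regulators. Of all genes tested, 51.6% were called against that fold, so these counts lie near the share of all genes. The remaining lists lay above that share. Of 19 other plasma membrane transporters tested, 8 were higher and 8 lower against that fold. Of 15 amino acid sensors 7 were higher and 6 lower, and of 9 lysosomal carriers 4 were higher and 2 lower. With upper-quartile scaling SLC7A5 (-0.0583) and SLC3A2 (-0.0585) were not called. That scaling moved the median of all genes to 0.06. With the GC and length correction SLC38A1 turned to 0.18, SLC7A5 came to -0.00893 and 2 of the 8 genes were higher, while BSG (-0.13), CASTOR1 (-0.10), GOT1 (-0.0203), PSPH (-0.0659), SLC38A9 (0.0404) and VLDLR (0.16) changed sign. The cause was not tested. With a mean of at least 5 CPM, 9 of the other plasma membrane transporters changed, since fewer were tested. Of all 11596 genes tested at that filter, 9903 were called.

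Leaving out 1 library gave -0.15 to -0.0682 for SLC7A5 and -0.14 to -0.0704 for SLC3A2, and -0.0260 to 0.0275 for the log2 difference of their ratio. It gave 1171 to 1318 called intron clusters of all tested and 0 to 1 of the transporter genes, the 1 without aggregates library 2, while the cluster F test called 2721. Among list genes that were not called, it gave lowest and highest values of -0.00551 to 0.0331 for BSG, -0.00604 to 0.0630 for GOT1, -0.000284 to 0.0338 for LARS and -0.0211 to 0.0519 for NEDD4L. The difference in the SLC3A2 upstream percentage lay between 9.35 and 10.6 points, at an exact permutation p of 0.2, the smallest that 2 against 3 allow.

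The replicate numbers gave no clear pairing. The deviations of libraries with the same number correlated at 0.0328, 0.0794 and 0.229 over 11598 genes. Those of libraries with different numbers correlated at -0.21 to 0.0978, and not every library correlated best with its own number. With 3 libraries per group this check cannot show whether the libraries were paired. With the replicate block 13530 genes and 1494 intron clusters were called, and no call on the 8 genes changed (SLC7A5 -0.10, SLC3A2 -0.10, SLC38A2 -0.88). At 1 count of 0.0213 to 0.0248 CPM depth limits none of the 8 genes. It limits rare introns.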
